A study of Sus scrofa with 2 samples.

Results

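Topologically associating domains (TADs) are segments of a chromosome whose sequences meet each other more often than they meet sequences outside. The subject here is the smallest of them in pig spleen: 512 TADs of 200 kb or less on chromosomes 1 to 18 that share no base with another listed TAD. They were chosen by the length and the isolation of the domains in the deposited TAD list, so both are descriptions and not findings. They make up 26.8% of the 1908 autosomal TADs, 30.2% of the 1695 autosomal TADs that share no base with another, and are part of 1927 TADs listed in all. Another 58 autosomal TADs of 200 kb or less overlapped a TAD and were left out.

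Chromatin contacts were measured by in situ Hi-C, in which fixed chromatin is cut (here with the enzyme DpnII), its ends are ligated and the joined fragments are sequenced, in spleen of Sus scrofa. The study had a single group of 2 biological replicates and no second tissue, treatment or genotype, and its title places it in work on transposable elements and genome folding. The labels used here give no breed, sex or age. The deposited lists of TADs and of 3410 loops cover the whole series, so no value per replicate, no left-out replicate and no check of the spleen label against marker expression could be had. The depth is unknown, and errors below are 95% Wilson intervals over TADs, which take TADs as independent, or the SD between chromosomes.

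In vertebrates, the ring-shaped cohesin complex is thought to reel chromatin into a growing loop until it meets bound CTCF, and many TADs have a loop between their edges, seen as a bright pixel at the corner of the domain. Promoters of active genes are also common at domain edges. Spleen is a mixture of B and T lymphocytes, macrophages, red cells and platelet precursors, so a domain listed in the tissue may come from any of the nucleated cells among them.

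The small TADs were 120 to 200 kb long, with a median of 180 kb and quartiles of 160 and 190 kb, and covered 89.4 Mb. The mid-size TADs set beside them below (905, from 210 to 490 kb) had a median of 270 kb, and the large TADs (278, of 500 kb or more) a median of 825 kb, all of them autosomal and sharing no base with another. Just inside the limit, at 200 kb, there were 98 TADs with 2.11 whole protein-coding genes on average, and 36.7% of them were closed by a loop, as defined below. Just outside it, at 210 kb, there were 67 TADs with 2.6 genes, and 52.2% were closed.

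Small TADs were found on every autosome, most on chromosome 6 (55), chromosome 1 (46) and chromosome 14 (45), and least on chromosome 11 (2). Their density was 0.235 ± 0.101 per Mb (SD, n = 18 chromosomes), from 0.0253 on chromosome 11 to 0.504 on chromosome 12. Chromosome 12 also had the most protein-coding genes per Mb (18.2), and chromosome 11 the fewest (4.08). Small TADs made up 44.3% of the TADs on chromosome 12 that share no base with another, and 6.9% of those on chromosome 11.

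**Figure D1:**
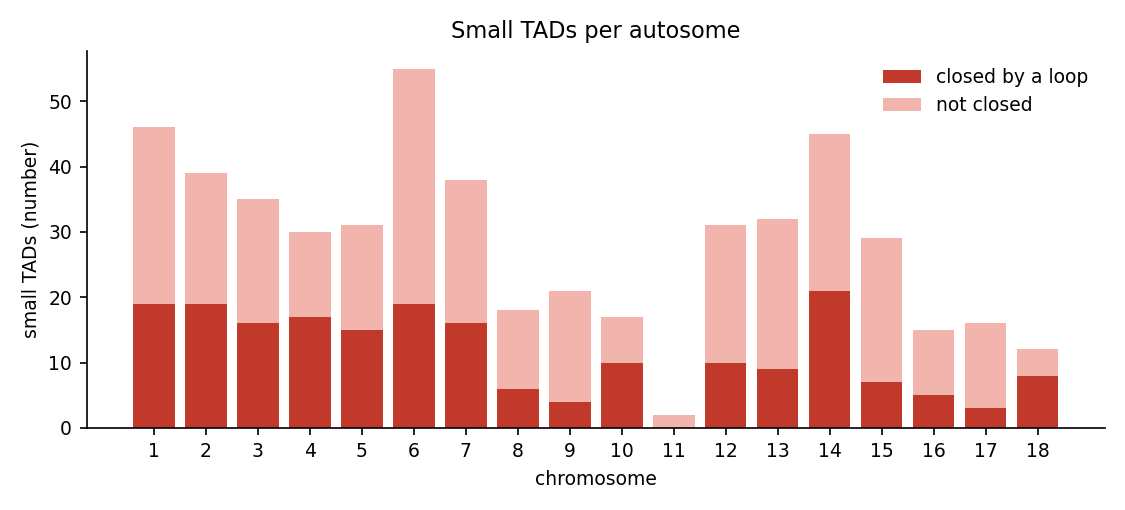
Number of small TADs on each autosome (y axis, number; x axis, chromosome), split into those closed by a loop (dark) and those not closed (light). Chromosome 6 held 55 and chromosome 11 held 2, neither of them closed.

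A loop was counted as closing a TAD where its left anchor overlapped a window of 20 kb on each side of the TAD start and its right anchor the same window at the TAD end. Of the small TADs, 204 (39.8%, interval 35.7 to 44.1%) were closed in this way, against 30.6% of all autosomal TADs that share no base with another. The share was 32.8% (29.8 to 35.9%) for mid-size TADs and 6.47% for large ones (18 of 278). The window is a larger part of a small TAD than of a long one. With anchors required to touch the edge itself, 15.8% of small and 15.1% of mid-size TADs were closed, and with windows of 10 kb 22.3% and 21.9%, and with windows of 40 kb 58.4% and 44.4%. The classes thus differed with windows of 20 and 40 kb, and were within 1 percentage point of each other with windows of 0 and 10 kb. With 1 pixel kept per group of touching pixels, the shares at 20 kb were 29.1% for small and 27.4% for mid-size TADs, so most of the difference was not seen there either. With the 1630 autosomal loops of lowest FDR (the largest q-value of a loop), they were 28.3% and 20.9%, so a difference remained there. TADs and loops come from the same contact maps, so the difference was not tested. On the 17 chromosomes with 10 or more small TADs, 39.9 ± 13.8% of them were closed (SD between chromosomes), from 18.8% on chromosome 17 to 66.7% on chromosome 18.

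**Figure D2:**
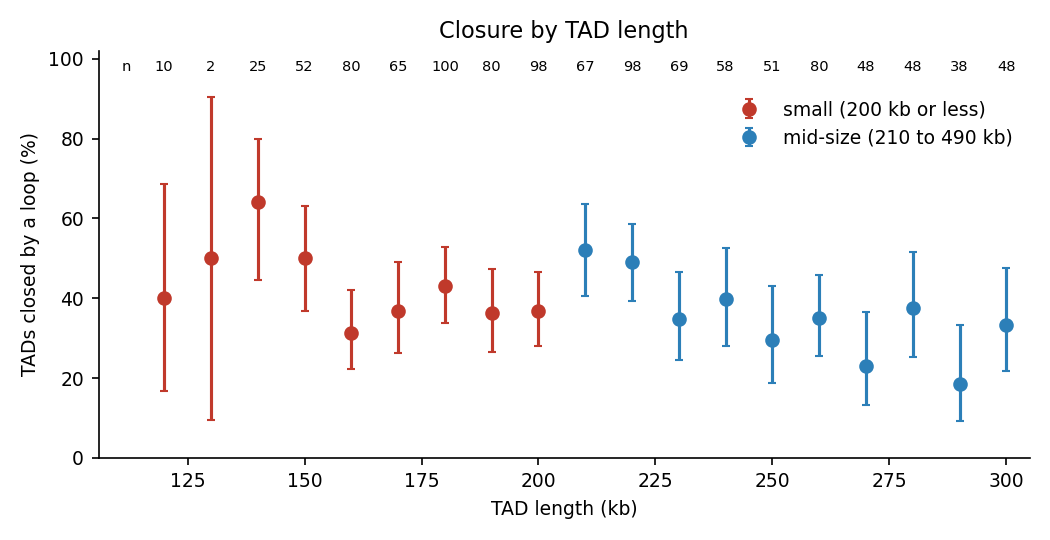
Share of TADs closed by a loop (y axis, percent) for each TAD length in kb (x axis), with 95% Wilson intervals as bars and the number of TADs above each point. Small TADs (red) ranged from 31.2% at 160 kb to 64.0% at 140 kb, and the shortest mid-size TADs (blue), at 210 kb, were at 52.2%.

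No loop anchor lay at either edge of 156 small TADs (30.5%, 26.6 to 34.6%), against 42.1% of all autosomal TADs that share no base with another, 38.3% of mid-size and 75.5% of large TADs. An anchor at 1 edge alone was found for 130 small TADs (25.4%, against 24.5% of all autosomal TADs that share no base with another). Anchors at both edges that belonged to different loops were found for 22 (4.3%, against 2.83%). Loops with both anchor midpoints inside the domain, but not closing it, were found in 201 small TADs. These inner loops numbered 296, and 178 of them spanned 100 kb, the shortest span listed. In total 325 small TADs (63.5%) had a closing or an inner loop, and 139 (27.1%) had no closing, inner or leaving loop. Of the closed ones, 87 also had a leaving loop, counted as any loop with an anchor at an edge that neither closed the TAD nor lay inside it. Loops from an edge away from the domain gave 163 pairs of loop and TAD. In 73 of these pairs (44.8%) the far anchor lay at an edge of another TAD. Inner, leaving and outward loops were counted for small TADs alone, so these numbers have no comparison with the longer classes.

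The 283 loops that closed small TADs spanned 100 to 225 kb, with a median of 150 kb. Of the closed TADs, 140 had 1 closing pixel, 51 had 2 and 13 had 3 or more. Most of these loops (234) were shorter than their TAD, by a median of 25 kb over all 283 (difference of -25 kb), and 453 of 566 anchors were centred inside the edge, the median over all of them being 12.5 kb inside. TAD edges lie on a grid of 10 kb and anchors on one of 25 kb, so offsets of this size are near the resolution of the lists.

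Closing loops had a median of 120 observed contacts, with quartiles of 104 and 139 and a range from 68 to 295. These are counts in the pixel as the authors list them, not normalized. The 1964 other autosomal loops of 100 to 225 kb had a median of 119 contacts. The ratio of observed contacts to those expected from the surrounding donut of pixels had a median of 2.0 for closing loops (quartiles 1.85 and 2.19). It was 1.87 for the other loops (1.71 and 2.11). Loops closing mid-size TADs had a median ratio of 2.17 and those closing large TADs 2.35, over longer spans. Those of mid-size TADs start at 175 kb, so the ones of up to 225 kb are among the other loops. Contacts fall with distance, so loops were also set side by side at each span. At 100 kb the 26 closing loops had medians of 154 contacts and a ratio of 2.07, against 136 contacts and 1.72 for 693 others. At 150 kb the 87 closing loops had 129 contacts and a ratio of 1.9, against 113 and 1.87 for 192 others. At 175 kb the 86 closing loops had 108 contacts and a ratio of 2.1, against 109 and 2.01 for 256 others. At 200 kb the ratios were 2.07 for 19 closing loops and 2.08 for 237 others. The difference in ratio was thus larger at 100 kb than at 150, 175 or 200 kb, while contacts differed at 150 kb as well. None was tested, since the TAD caller and the loop caller read the same maps.

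**Figure D3:**
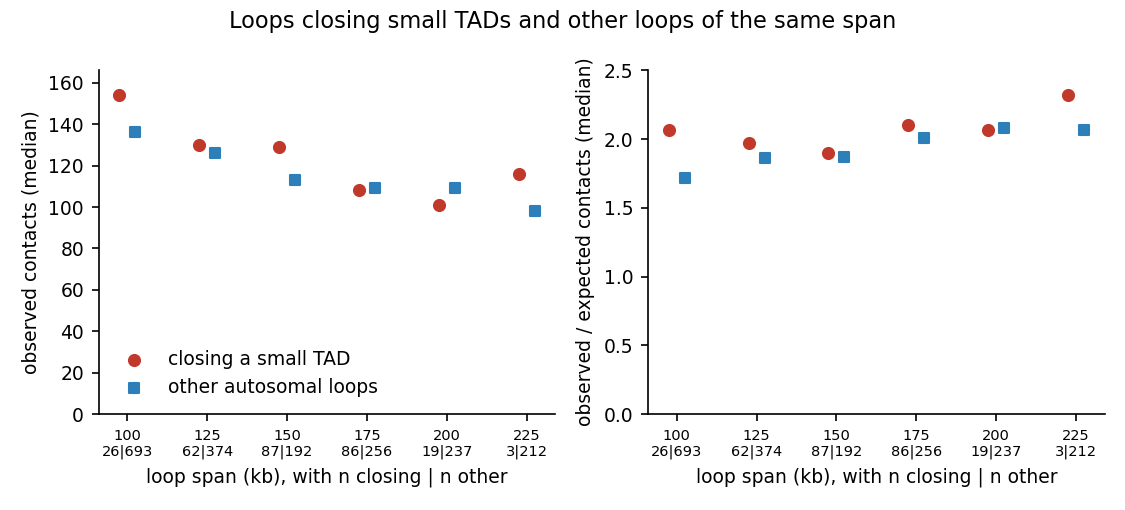
Median observed contacts (left, number) and median ratio of observed to expected contacts (right) by loop span in kb (x axis, with the number of closing and of other loops under each span). Red points are loops closing a small TAD and blue squares are the other autosomal loops. The medians of the ratio differ most at 100 kb (2.07 and 1.72), and at 225 kb the red point stands for 3 loops.

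By contacts in a closing loop, first came the TAD on chromosome 7 from 98310001 to 98470000. It holds FOS, a subunit of the AP-1 transcription factor made early after cell stimulation, and TMED10, a cargo receptor of the secretory pathway. Its closing loop joined an anchor with an end of TMED10 to one with an end of FOS, with 295 contacts against 110.3 expected (ratio 2.68). The TAD on chromosome 2 from 69070001 to 69210000 holds ICAM1, ICAM3 and ICAM4, adhesion molecules that bind leukocyte integrins, and TYK2, a JAK kinase of cytokine receptors. Its strongest closing loop had 260 contacts against 122 expected and joined an anchor with ends of MRPL4 and ICAM1 to one with an end of TYK2. Both TADs thus had gene ends in both anchors.

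On chromosome 7, from 22960001 to 23110000, a TAD with TRIM39 and RPP21 was closed by a loop of 247 contacts whose anchors held no gene end, and the class I histocompatibility genes SLA-2 and SLA-3 have an end within 20 kb of its start. RCSD1, a gene for a regulator of actin capping, was the single whole gene of the TAD on chromosome 4 from 83310001 to 83460000, closed with 231 contacts. A TAD of 120 kb on chromosome 10, from 27620001 to 27740000, with FBP2, a fructose-bisphosphatase, and CTSL, a lysosomal protease, had 227 contacts against 81.1 expected. The same number, 227, was listed for the TAD on chromosome 7 from 32650001 to 32830000. It holds PIM1 alone, a serine/threonine kinase induced by cytokines, between anchors with ends of FGD2 and TMEM217. Of the rest of the 10 highest, 3 had 199 to 214 contacts. They hold SNRPA, a spliceosome protein, with 7 more named genes (chromosome 6), POLR2G, a subunit of RNA polymerase II, with SLC3A2, NXF1 and 7 others (chromosome 2), and POR, the electron donor of cytochromes P450, with TMEM120A and RHBDD2 (chromosome 3).

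**Figure D4:**
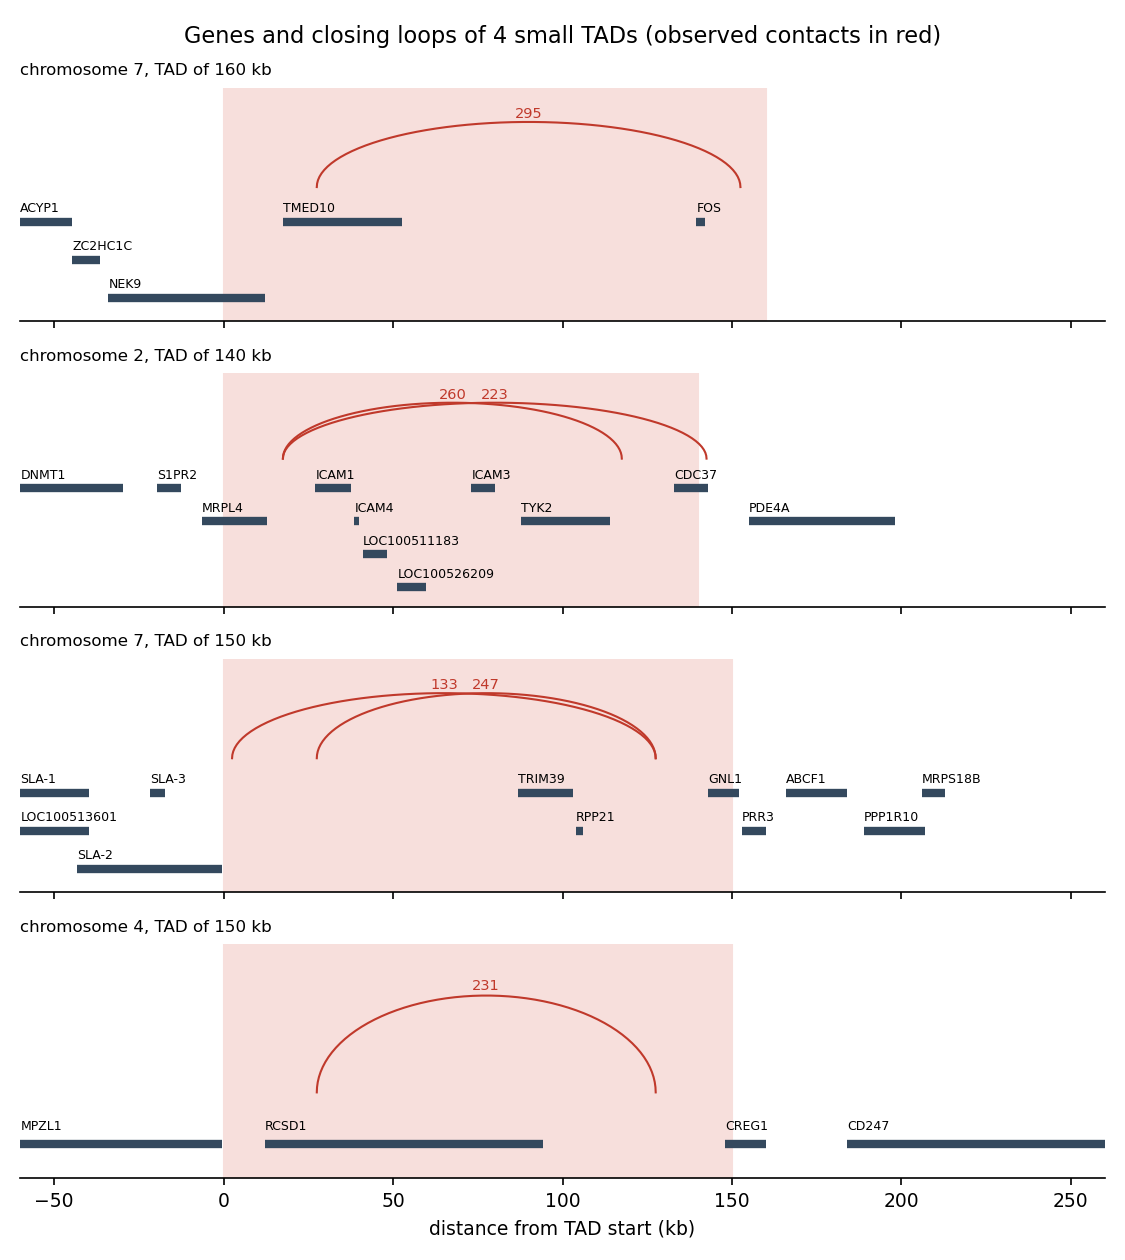
Protein-coding genes (dark bars) and closing loops (red arcs between anchor midpoints, labelled with observed contacts) of the 4 small TADs whose closing loops had the most contacts (shaded), by distance from the TAD start in kb. The arc of the top TAD, with 295 contacts, starts 27.5 kb inside the TAD start, at TMED10, and ends 7.5 kb inside the TAD end, close to FOS.

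By ratio to the expected contacts the order was different. Of the TADs with the 5 highest ratios, the FBP2 TAD (2.8) was also among the 10 with the most contacts, while the FOS TAD, first by contacts, had a ratio of 2.68. The highest ratio, 3.07, was that of a loop with 123 contacts that closed the TAD on chromosome 14 from 61120001 to 61320000. That TAD contains no whole gene and overlaps BMS1, a ribosome biogenesis factor, and RET, a receptor tyrosine kinase. A ratio of 3.05 was found at the TAD of NUMB, an inhibitor of Notch signalling, on chromosome 7 from 96620001 to 96820000, with 167 contacts. TADs overlapped by PTPDC1 on chromosome 3 (2.82) and by C2H11orf49 on chromosome 2 (2.77) followed. The most closing pixels, 4 each, belonged to TADs that lie largely or wholly within a single gene, ZNRF3, a membrane ubiquitin ligase that dampens Wnt signalling (chromosome 14), and MKL1, a coactivator of serum response factor (chromosome 5). Another 11 TADs had 3 each.

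The shortest TADs were 10 of 120 kb, 4 of them closed. TAGAP, a GTPase-activating protein of activated T cells, was the single gene of the one on chromosome 1 from 8120001 to 8240000, which was closed. Another, on chromosome 3 from 49330001 to 49450000, held FHL2, a LIM domain cofactor, and had 2 closing pixels. The FBP2 TAD had 3, and a TAD overlapped by the septin gene SEPT9 on chromosome 12 had 2. Not closed were those with HDHD2 and IER3IP1 (chromosome 1), GAMT, NDUFS7 and EFNA2 (chromosome 2), LAPTM4A and MATN3 (chromosome 3) and RASSF5, an effector of Rap1 in lymphocyte adhesion, overlapped by IKBKE (chromosome 9).

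Gene content was not used to choose the domains. Of the small TADs, 412 (80.5%, 76.8 to 83.7%) held at least 1 whole protein-coding gene, close to the 82.1% of all autosomal TADs that share no base with another, and 79 held 5 or more. They held 1235 whole genes, a median of 1.5 and up to 19 per TAD. Mid-size TADs held a median of 2 and large TADs a median of 1. Since the domains differ in length, the number per length says more: 1.38 whole genes per 100 kb in small TADs, 0.953 in mid-size and 0.301 in large TADs. Only genes shorter than the domain can lie wholly in it, and genes inside small TADs had a median length of 14.3 kb, against 20.7 kb for all 18722 autosomal protein-coding genes. Of the small TADs, 2 overlapped no protein-coding gene, 1 next to PHF2 on chromosome 3 and 1 next to FUT8 on chromosome 7.

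Gene ends, counted in place of transcription starts because the gene table has no strand, were denser at the edges of small TADs than inside or outside them. A gene end lay within 20 kb of either edge for 452 small TADs (88.3%, 85.2 to 90.8%), against 80.2% of all autosomal TADs that share no base with another. The share was 83.1% for mid-size and 56.1% for large TADs. Both edges had a gene end in 51.8% of small TADs, 39.1% of mid-size and 13.7% of large TADs. A single edge had one in 67.4% (start) and 72.7% (end) of small TADs, and a window of the same width at the midpoint of the TAD in 53.3%. Per 100 kb, there were 4.1 gene ends within 20 kb of the edges of small TADs and 3.21 deeper inside. Outside, there were 3.24 at 20 to 100 kb from an edge and 2.77 at 200 to 300 kb. Mid-size TADs had 3.37 at the edge, 2.14 inside and 2.22 at 200 to 300 kb outside, and large TADs had 1.36, 0.787 and 1.69. Small TADs thus had more gene ends than the longer classes at the edge, inside and in the far flank alike, and the large TADs had fewer at the edge than outside.

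**Figure D5:**
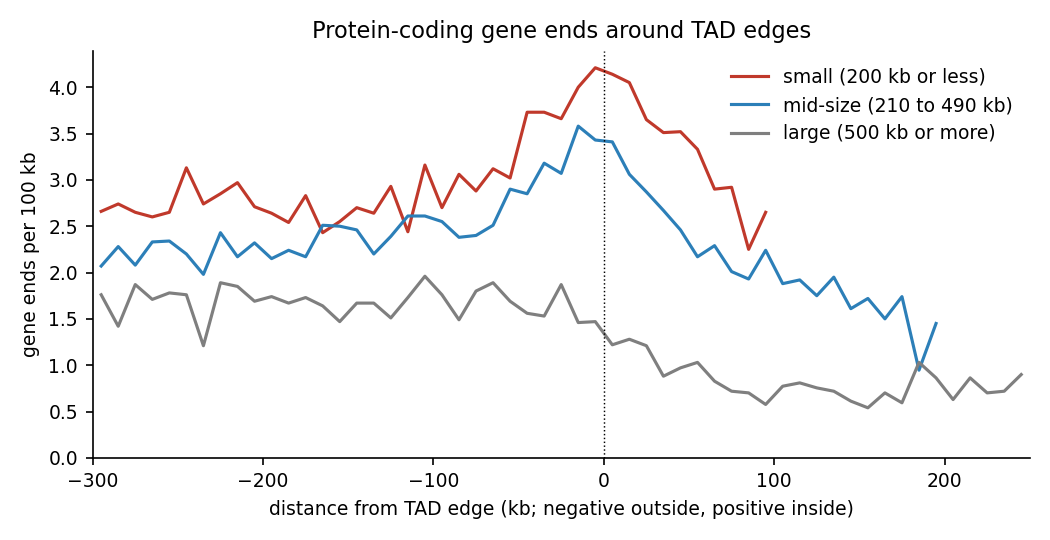
Protein-coding gene ends per 100 kb (y axis) by distance from the TAD edge in kb (x axis, negative outside, positive inside, in steps of 10 kb, both edges joined), for small (red), mid-size (blue) and large TADs (grey). The small TADs peak at 4.21 in the 10 kb just outside the edge, and bins with under 50 TADs long enough to reach them are not drawn.

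Closed small TADs held fewer whole genes per length than those not closed, called open here. The 204 closed ones held 1.05 whole genes per 100 kb. The 152 with an anchor at an edge but no closing loop held 1.56, and the 156 with no anchor at either edge held 1.63. A whole gene was found in 74.0% (67.6 to 79.6%) of closed TADs, against 84.9% (78.3 to 89.7%) and 84.6% (78.1 to 89.4%) in the other 2 groups, and the intervals overlap by little. Gene ends lay at the midpoint of 47.1% of closed TADs, against 54.6% and 60.3%. At either edge the shares were 86.8%, 89.5% and 89.1%, closer together than the width of their intervals. At both edges they were 47.1% (40.3 to 53.9%) of closed TADs, against 59.2% (51.3 to 66.7%) of open ones with an anchor at an edge and 50.6% of those with no anchor. Median length was 180 kb in each of the 3 groups. Gene ends were present in both anchors of 28.3% of closing loops and in neither of 26.5%, against 30.3% and 27.4% of the other loops of 100 to 225 kb.

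Of the 10 small TADs with the most named genes, 3 were closed and 7 open, against 39.8% of all small TADs closed. With 10 TADs this is a description and was not tested. The last 2 places were taken from 6 TADs with 10 named genes each, 2 of them closed, by shorter length and then position. The richest, on chromosome 7 from 23770001 to 23960000, held 19 genes of the class III part of the histocompatibility complex, among them the heat shock genes HSPA1L and HSP70.2, the Ly6 genes LY6G5C, LY6G6C, LY6G6D and LY6G6F, NEU1, a lysosomal sialidase, and CSNK2B, a casein kinase subunit. On chromosome 3 a TAD from 68430001 to 68630000 held 17, with HTRA2, a mitochondrial protease, INO80B of the INO80 chromatin remodeller and PCGF1, a Polycomb protein. On chromosome 2, from 7770001 to 7930000, 15 genes included BAD, which promotes apoptosis, FERMT3, the kindlin that activates integrins in blood cells, ESRRA and VEGFB. A TAD on chromosome 17 from 47960001 to 48150000 held 14, with CTSA, PLTP and UBE2C. Those on chromosome 4 held 12 (with TXNIP, RBM8A and PIAS3) and 11 (with ADAM15, SHC1 and CKS1B). None of these 6 was closed.

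The 3 closed ones of the 10 were on chromosomes 15, 7 and 2. The TAD from 121190001 to 121350000 on chromosome 15, with 12 genes such as ATG9A of autophagy, ABCB6 and TUBA4A, had 3 closing pixels of up to 130 contacts. The TAD from 38010001 to 38210000 on chromosome 7, with 11 genes such as CUL7, PEX6 and PTK7, had 1 pixel of 107. The third was that of POLR2G, with 10 genes and 214 contacts. The last of the 10, on chromosome 6 from 88650001 to 88800000, was open and held LCK, the kinase that starts T cell receptor signalling, HDAC1, a histone deacetylase, EIF3I and 8 others.

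A single protein-coding gene covered 80% or more of 57 small TADs (11.1%, 8.69 to 14.2%), against 10.2% of all autosomal TADs that share no base with another. In 13 of them a gene ran from edge to edge. The longest such genes were FRMD4A (664 kb, 87.6% of a TAD on chromosome 10), RABGAP1L (658 kb, chromosome 9), ARHGAP15 (619 kb, chromosome 15), TBC1D5 (547 kb, chromosome 13) and CDH23 (467 kb, chromosome 14). They were followed by DTNA (420.4 kb, chromosome 6), NEMP2 (402 kb, chromosome 15), NEDD4L (372 kb, chromosome 1), THADA (325 kb, chromosome 3) and RAPGEF4 (321 kb, chromosome 15). Of these 10, RABGAP1L, NEDD4L, THADA and RAPGEF4 had a closing loop, with up to 78, 104, 139 and 92 contacts. ARHGAP15 encodes a Rac-inactivating protein of leukocytes, and NEDD4L a ubiquitin ligase of ion channels. Of the closed small TADs 12.3% were covered in this way, against 11.2% of the open ones with an anchor at an edge and 9.62% of those with no anchor, shares whose intervals overlap.

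Small TADs seldom adjoined another TAD. A gap of 0 was found for 5 (0.977%), against 0.59% of all autosomal TADs that share no base with another. In 146 (28.5%) the nearest TAD lay within 40 kb, against 23.5% of mid-size and 18.7% of large TADs. The median distance to the nearest TAD was 110 kb for small, 130 kb for mid-size and 160 kb for large TADs. The 5 that adjoined one were overlapped by CAST, ELK3 and RABGAP1L, each with 1 closing pixel, or by XXYLT1, or held PIK3R5, PIK3R6 and MFSD6L, the last 2 TADs being open. The 5 most remote small TADs lay 2980 to 3910 kb from the next. They held CALY, ECHS1 and MTG1 with 7 others (chromosome 14), AGO2, the slicing enzyme of RNA interference, with CHRAC1 (chromosome 4), HMMR, CCNG1, MAT2B and NUDCD2 (chromosome 16), CMBL (chromosome 16) and ARRDC4 (chromosome 7). Of these, the ARRDC4 TAD was closed. In the order along the chromosome, 268 of the 512 small TADs stood next to another small TAD in 111 runs. Small TADs were 30.2% of the autosomal TADs that share no base with another. How many such neighbours that share alone would give was not computed, so no clustering is claimed. The longest run had 8 on chromosome 7, from 96620001 to 100200000, over 3.58 Mb with 18 whole genes, and it contains the NUMB and FOS TADs named above.

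Of the 18722 autosomal protein-coding genes, 1811 (9.67%) overlapped a small TAD, 1235 (6.6%) lay wholly inside and 1244 (6.64%) had an end within 20 kb of an edge. Of other gene classes, 28 of 270 autosomal miRNA genes (10.4%), 266 of 5206 lncRNA genes (5.11%), 13 of 440 tRNA genes (2.95%) and 82 of 2150 pseudogenes (3.81%) lay wholly inside. None of 80 immunoglobulin and T cell receptor V and C segments overlapped a small TAD. If segments were independent, this would allow a share of up to 3.75% (3 counts of the total). Neighbouring genes share a TAD, so genes are not independent in these counts, and the limit for the segments may be too low.

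The 21 gene lists held 710 distinct autosomal genes, of which 82 (11.5%) overlapped a small TAD, against 9.67% of all autosomal protein-coding genes. No list was tested, and with 11 to 75 genes a list their intervals are wide. Members at a closed TAD were named first, so the names lean towards closed TADs. As background for the splits into closed and open, 39.8% of all small TADs were closed. Platelet genes had the highest share, 5 of 16 (31.2%, 14.2 to 55.6%). They included ITGB3, a chain of the platelet fibrinogen receptor, TREML1, TUBB1 and VWF (TUBB1 and VWF were added to the named genes after their values were seen). None of the 5 was in a closed TAD, against 39.8% of all small TADs closed. A count of 5 is small, and the difference was not tested, so no lack of loops is claimed. GP1BA, the von Willebrand factor receptor, had an end at the edge of a closed small TAD. Plasma cell genes followed with 3 of 11 (27.3%, 9.75 to 56.6%). TNFRSF17, the receptor BCMA, and XBP1, which drives the secretory programme, lay inside closed TADs, and CREB3L2 overlapped an open one.

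Among the lymphocyte and myeloid lists, T and NK cell genes overlapped small TADs in 6 of 42 (14.3%). CCR7, the receptor that guides cells into lymphoid tissue, lay in a closed TAD on chromosome 12 from 21840001 to 21990000 with 139 contacts. CD4, on chromosome 5, was in an open TAD. B cell genes did so in 3 of 26, with TNFRSF13C, the BAFF receptor, in a closed TAD, and CIITA and POU2AF1 in open ones. Macrophage and monocyte genes did so in 3 of 35, namely CEBPA and IRF5 in closed TADs and TREM2 in an open one. Dendritic cell genes did so in 4 of 21, with CCR7, CD80 and IRF8 in closed TADs and CIITA in an open one. Erythroid genes had 1 of 20 (NFE2), neutrophil and mast cell genes 0 of 16 (a share of up to 18.8%) and stroma and vessel genes 3 of 32, with DES and ENG in open TADs, while MADCAM1, the addressin of lymphoid vessels, and TCF21 had an end at the edge of a closed one.

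Among genes of immune signalling, NF-kB genes overlapped small TADs in 6 of 27 (22.2%, 10.6 to 40.8%). None of the 6 TADs was closed, against 39.8% of all small TADs closed. A count of 6 is small, and the difference was not tested, so no lack of loops is claimed. The named ones were IKBKE, MAP3K14, NFKB1 and NFKBIB. Interferon response genes did so in 6 of 37 (16.2%). DDX58, a sensor of viral RNA, lay in a TAD on chromosome 10 with 2 closing pixels of up to 135 contacts. The antiviral GTPases MX1 and MX2 shared a TAD on chromosome 13 from 204690001 to 204890000, closed with 70 contacts. The other 3, IFNGR1 among them, were in open TADs. Cytokine and chemokine genes did so in 8 of 48 (16.7%). CXCL16 lay in a TAD on chromosome 12 with 1 closing pixel of 131 contacts, and IL1A had an end at the edge of a closed TAD on chromosome 3. CCL2 and CCL8 shared an open TAD on chromosome 12. CXCL16 alone of the 8 was in a closed TAD, against 39.8% of all small TADs closed. Some of the 8 shared a TAD, and the difference was not tested. Immediate early and MAP kinase feedback genes did so in 7 of 47 (14.9%). EGR3, FOS, KLF2 and PIM1 were in closed TADs, with 91, 295, 136 and 227 contacts, and the other 3 in open ones. This small count was not tested against the 39.8% of all small TADs closed.

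Ribosomal protein genes had an end at an edge more often than they lay inside. An end lay within 20 kb of an edge for 14 of 73 (19.2%), against 6.64% of all autosomal protein-coding genes. Wholly inside lay 8 of 73, also a higher share than the 6.6% of all autosomal protein-coding genes. These counts overlap, since RPL3, RPL10A, RPL13, RPS10 and RPS15A were in both. RPL3, RPL5, RPL11 and RPL22 were at edges of closed TADs, each with 2 closing pixels and up to 175, 172, 172 and 109 contacts. Of the 14 with an end at an edge, 7 were at closed and 7 at open TADs, against 39.8% of all small TADs closed. This was not tested. Core transcription and splicing genes overlapped small TADs in 7 of 48, with POLR2G and SNRPA in closed ones and the other 5, ERCC3 among them, in open ones. SRSF7 had an end at the edge of a closed TAD. Chromatin architecture genes did so in 2 of 30, MAU2, which loads cohesin together with NIPBL, overlapping a closed TAD, and LMNB2 inside an open one. Genes that silence transposable elements did so in 3 of 24, SIRT6 in a closed TAD and CBX5 and UHRF1 in open ones.

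For genes of other organs, the intervals of all 4 lists hold the 9.67% of all autosomal protein-coding genes. None of 31 neuronal genes overlapped a small TAD, which allows a share of up to 9.68%, and none had an end at an edge. Of 27 skeletal muscle genes 2 did, ACTA1 in a closed and TNNC2 in an open TAD, and of 32 liver genes 1 did, ASS1, at the edge of a closed one. Developmental transcription factors overlapped small TADs in 5 of 75 (6.67%, 2.88 to 14.7%), with HAND1 inside a closed TAD, GATA4 partly within a closed one and FOXA2 partly within an open one.

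Genes with like symbols shared some small TADs. In 24 (4.69%), 2 or more whole genes had symbols with the same leading letters, against 7.51% of mid-size and 5.04% of large TADs. Shared letters do not always mark a gene family, as for the TMEM symbols, so this is a count of symbols. These examples were chosen after their values were seen. The interferon-induced chemokine genes CXCL9, CXCL10 and CXCL11 shared a TAD with ART3 on chromosome 8 from 71620001 to 71820000, and CCL1, CCL2, CCL8 and CCL11 shared one on chromosome 12 from 40700001 to 40870000, both open. TREM1 and TREM2, receptors of myeloid cells, lay with TREML1 and TREML2 in an open TAD on chromosome 7 from 36410001 to 36560000. The 6 GTPases of lymphocytes GIMAP1, GIMAP2, GIMAP4, GIMAP6, GIMAP7 and GIMAP8 shared a TAD on chromosome 18 from 6310001 to 6500000 with 1 closing pixel of 158 contacts.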

How the data were processed

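In situ Hi-C was measured in 2 spleen samples of 1 group. Both deposited tables cover the series as a whole. TAD starts and ends lie on a grid of 10 kb. How the domains were called, the genome build and any pooling of replicates are steps not given in the sources used here. HiC-Pro 3.1.0 is credited to the pipeline by the submitters' processing notes, and per the file headers the loops come from juicer_tools 1.9.9, with 25 kb anchors. Per the file headers, the authors give for every loop a contact count (raw), expected signals from 4 sets of neighbouring pixels (the donut was used here), and a q-value for each of them.

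Genes came from a RefSeq table of Sscrofa11.1, with no strand. That the positions fit this assembly was checked by gene ends per autosomal anchor, which were 0.87 at the listed positions against 0.685 and 0.677 with anchors moved by 100 kb to either side. Printed positions are the deposited ones, 1-based.

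Domains were kept and windows of 20 kb on each side of an edge were counted as the text defines (Python 3.11.15, pandas 2.3.3, statsmodels 0.14.6 for Wilson intervals). No test was run, because no value per replicate could be had and the domains were chosen on the contact maps that gave the loops. The counting was tested on 400 simulated TADs and recovered all 166 planted closures and 279 planted whole genes. The planted cases lay well inside or well outside the windows, so the limit of the window was not checked. Of 768 gene list entries, 738 found a gene under their symbol or a synonym. The members, lists and rules were chosen with earlier results of these data known. The rule named the genes of the 10 TADs with the most contacts in a closing loop, the 5 highest ratios, the most closing pixels, the 10 gene-richest, 8 of the shortest, the 10 longest covering genes, the 5 most remote TADs and up to 4 members a list. Within a list, members at a closed TAD were named first, then by symbol, so the named list genes lean towards closed TADs. A few genes that the rule names are not reported here. Alternatives were other windows, loop sets, length limits and gene sets, and leaving out adjoining TADs or chromosome 6.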

Additional observations from a re-analysis of the deposited data

How the results depend on the processing

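Of 38 alternative values, 21 stayed within the interval of the value reported (shares), within the SD between chromosomes (contacts) or within 1.5 times (counts), and 17 did not. With edge windows of 0, 10 and 40 kb, 15.8%, 22.3% and 58.4% of small TADs were closed, and 47.1%, 38.7% and 24.6% had no anchor at either edge. A gene end lay at an edge in 70.7% with 10 kb and 96.5% with 40 kb. With 1 pixel per group of touching pixels 29.1% were closed, against 27.4% of mid-size TADs. With the 1630 autosomal loops of lowest FDR (the largest of the 4 q-values of a loop) 28.3% were closed, against 20.9% of mid-size TADs, 48.0% had no anchor at either edge, and the median ratio of closing loops was 2.12. With all annotated genes 86.9% held a whole gene and 92.2% had a gene end at an edge. Coverage from edge to edge by a gene was found in 2.54%, a TAD within 40 kb in 28.5%, and 47 list genes had an end at an edge, against 82 overlapping. Limits of 180 or 220 kb, leaving out adjoining TADs, leaving out chromosome 6 and dropping unnamed loci changed none of the shares they were applied to beyond their intervals. Windows of 0 kb for gene ends were not run, since edges lie on a grid of 10 kb, and transcription starts could not be used without strand. Depth is unknown, so whether open TADs lack a loop or fell below the calling threshold was not tested. No paired analysis was possible because both tables cover the series and hold no value per replicate.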

Other observations

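Outside the autosomes, 6 of the 15 TADs on chromosome X were of 200 kb or less and shared no base with another, and 1 of the 6 was closed, by a loop with 66 observed contacts. On unplaced scaffolds 3 TADs met the same limits. Among the runs of 4 or more consecutive small TADs, 9 in all, that on chromosome 2 from 73840001 to 75310000 held 4 TADs and 23 whole genes in 1.47 Mb, among them UHRF1, CHAF1A, SIRT6, MAP2K2 and PIAS4, and 2 of its TADs were closed. The run on chromosome 14 from 29380001 to 30420000 held 4 TADs and 12 whole genes, among them KMT5A, a histone methyltransferase, and none was closed. The run on chromosome 14 from 10080001 to 13130000 held 5 TADs with 2 whole genes, TRIM35 and EXTL3, and 3 were closed.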
